A study of Mus musculus with 12 samples.

Results

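MiR-324 is made from a single hairpin whose 2 strands, miR-324-5p and miR-324-3p, were measured by 3 of the 619 miRNA assays in this mouse hippocampus data set. The assays were chosen by name, as every assay numbered as miR-324 on either strand: hsa-miR-324-5p_000539, hsa-miR-324-3p_000579 and mmu-miR-324-3p_002509, written below without the final number. No Ct entered that rule, but the miRNA was selected on earlier results of these same Ct values, so its levels are a description. The prefixes hsa and mmu are the human and mouse names the assays carry, so by name a pair of assays addressed the 3p strand in each sample. The sequence each assay was designed against is not given in the sources used here, so whether the human-named and mouse-named 3p assays target the same mature form could not be checked. All 3 gave a threshold cycle (Ct) in all 12 samples, as did 335 of the 619 assays. Ct is the amplification cycle at which a quantitative PCR signal crosses a set level, so a lower Ct means more miRNA.

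The samples formed 4 groups of 3: vehicle controls of each genotype, named wt control and P2rx7-/- control, and KA-treated mice of each genotype, named wt post-SE and, for the knockout, P2rx7-/- post-SE. The post-SE groups had received 0.3 µg kainic acid (KA), a glutamate receptor agonist, into the amygdala, which induces status epilepticus (SE), a prolonged seizure, whereas the control groups had received vehicle (0 µg KA). All 4 groups were male C57BL/6 mice labelled as 8 weeks old (8 to 12 weeks in the methods), all were given lorazepam, an anticonvulsant, at 6 mg/kg 40 min after the injection, and the hippocampus on the injected side was taken at 8 h. The P2rx7-/- mice lack the P2X7 receptor, an ATP-gated ion channel, through deletion of exon 2 of P2rx7. The knockout is constitutive, so the comparison of genotypes is not one of acute loss. RNA of 2 hippocampi from different animals was combined in each sample, so p-values below measure the spread between pools, and neither P2rx7 mRNA nor RNA degradation can be checked in a miRNA table.

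MiRNAs are short RNAs that guide silencing complexes to mRNAs, mainly through the seed, bases 2 to 8 of the mature strand. Either strand of a hairpin can be loaded, and the strands, with different seeds, pair with different mRNAs. In the rodent brain, miR-324-5p has been studied for its repression of Kcnd2, which encodes an A-type potassium channel subunit that dampens neuronal excitability, and for the delay of seizures when it is blocked. The sequences below, from RefSeq (GRCm38.p6), show the mouse forms of both strands, which share no seed (seeds in capitals).
mmu-miR-324-5p: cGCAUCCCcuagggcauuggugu
mmu-miR-324-3p: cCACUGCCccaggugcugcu

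The 5p strand is 23 bases long at chr11:70012060-70012082 and the 3p strand 20 bases long at chr11:70012095-70012114, both on the plus strand. Of the 1736 other mature mouse miRNAs in the same table, 0 carried either seed. The hairpin, chr11:70012043-70012131, holds the 5p strand at bases 18 to 40 and the 3p strand at bases 53 to 72, and lies within Acadvl (chr11:70010183-70015428), a mitochondrial fatty acid oxidation gene on the opposite strand. Whether that stretch of Acadvl is exonic or intronic was not analysed here. It is printed with both mature strands in capitals, to show that 1 precursor yields both.
mmu-mir-324 hairpin: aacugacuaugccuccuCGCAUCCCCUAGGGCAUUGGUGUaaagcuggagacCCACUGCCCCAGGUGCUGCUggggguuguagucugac

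The 12 samples gave a Ct for 470 to 538 of the miRNA assays. Brain miRNAs were present: miR-128a had a median Ct of 14.4 over 12 samples and miR-124a of 14.6 over the 11 in which it was listed. The brain markers miR-219 and miR-338-3p had higher medians, of 18.1 and 19.1, in all 12 samples. MiR-138 was listed in 10 samples and ran from 10.1 to 24.0. Liver miR-122 had a median of 24.1, and cardiac miR-208b was listed in 1 sample. Not all markers of other tissues were low. The skeletal muscle miRNAs miR-133a and miR-206 were listed in all 12 samples, at medians of 16.1 and 22.7. The pancreas marker miR-217 differed between its assays, with a median of 18.5 in 6 samples by one and 25.5 in 7 samples by the other. The pancreas marker miR-216a had a median of 26.02 in the 6 samples that listed it. MiR-9 was listed in 4 samples, at 10.1 to 12.3, and the lowest Ct listed for any assay was 10.004. Red cell miR-451 and miR-486 were measured in all samples, at medians of 18.1 and 16.6, and miR-144 in 8 samples, at 22.7. In bulk tissue, fewer cells of a type and less RNA per cell cannot be told apart. The replicate 1 samples stood apart: 19 to 72 of the 335 assays deviated by over 2 cycles from the median that the other samples gave, against 3 to 16 in the replicate 2 and 3 samples, with the 72 (21.5%) in wt control replicate 1. For miR-324, values without replicate 1 samples are therefore given beside those that move with them.

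MiR-324-5p had the smallest spread of the 3 assays over all 12 samples. In wt controls, hsa-miR-324-5p had a Ct of 17.6, 16.8 and 16.6 in replicates 1, 2 and 3, and in P2rx7-/- controls 17.8, 17.5 and 17.6. In wt post-SE samples it had 17.7, 17.2 and 16.8, and in P2rx7-/- post-SE samples 17.4, 17.3 and 18.3. The 4 groups overlapped, and all 12 values fell within 1.73 cycles. The replicate 2 and 3 samples alone spanned the same 1.73 cycles, more than for either 3p assay. After each sample's mean Ct over the 335 assays was subtracted, its within-group SD was 0.287 on the log2 scale, at percentile 4.18 of the 335 assays, whose median SD was 0.636.

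The human-named 3p assay gave similar Ct values in 10 samples and stood apart in the replicate 1 samples of wt control and wt post-SE. The hsa-miR-324-3p Ct was 17.8, 16.2 and 15.9 in wt controls and 15.8, 16.4 and 16.5 in P2rx7-/- controls. It was 13.2, 16.5 and 16.1 in wt post-SE samples and 16.5, 16.4 and 16.2 in P2rx7-/- post-SE samples. The lowest Ct, that is the most miRNA, was wt post-SE replicate 1, and the highest was wt control replicate 1. Over all 12 samples the range was 4.62 cycles, but over the 8 replicate 2 and 3 samples it was 0.666 cycles. Its within-group SD was 1.14 (log2), at percentile 77.9.

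The mouse-named 3p assay scattered more, and partly in other samples. The mmu-miR-324-3p Ct was 22.6, 17.2 and 16.8 in wt controls and 20.3, 17.6 and 17.6 in P2rx7-/- controls. It was 17.5, 17.0 and 16.9 in wt post-SE samples and 14.0, 17.2 and 17.8 in P2rx7-/- post-SE samples. Here wt control replicate 1 and P2rx7-/- control replicate 1 were low in miRNA and P2rx7-/- post-SE replicate 1 was high, whereas wt post-SE replicate 1, the extreme sample of the human-named assay, was level with its group. The range was 8.57 cycles over 12 samples and 1.01 over the replicate 2 and 3 samples, and the within-group SD was 1.83 (log2), at percentile 88.7.

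**Figure D1:**
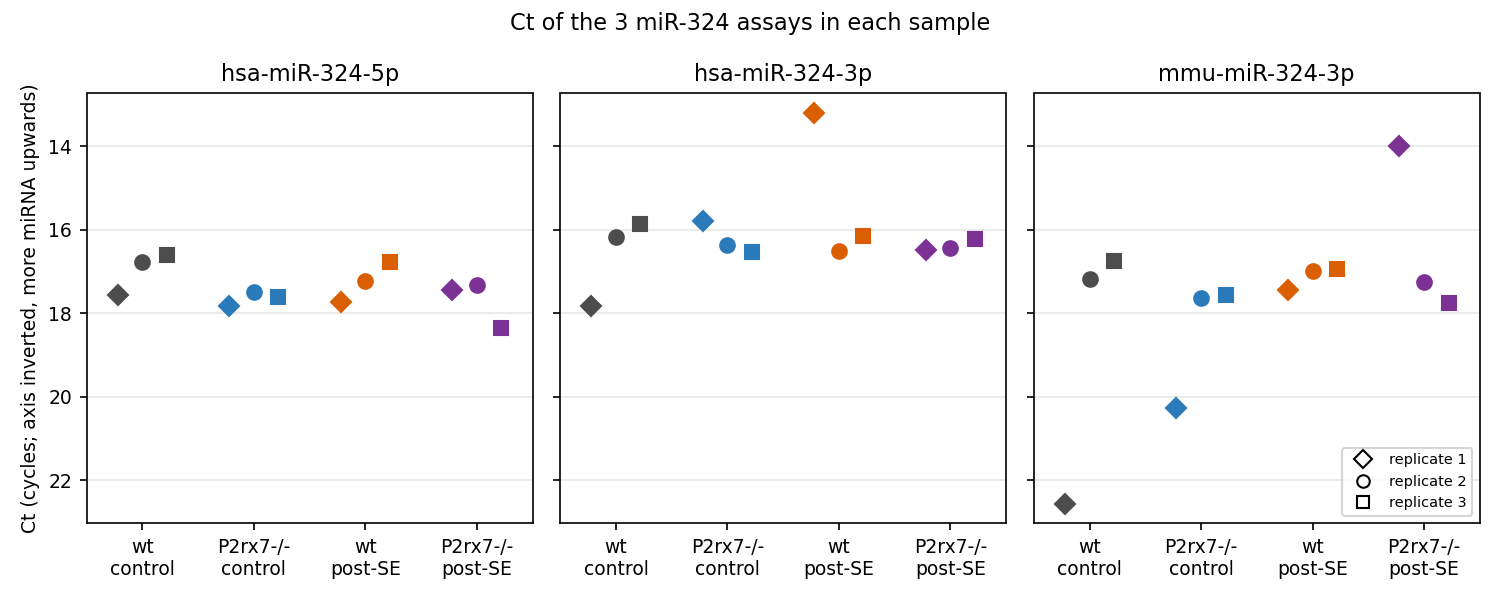
Ct in cycles (y axis, inverted so that more miRNA is higher) of each miR-324 assay in each sample, by group (x axis, colours); marker shapes give the replicate number. The 8 replicate 2 and 3 samples of hsa-miR-324-3p and mmu-miR-324-3p lie within 0.666 and 1.01 cycles, and the distant values, 13.2, 14.0, 20.3 and 22.6, are all replicate 1 samples.

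Ranked by mean normalized level (minus delta Ct, log2), hsa-miR-324-5p ran wt post-SE, wt control, P2rx7-/- control, P2rx7-/- post-SE, in steps of 0.05, 0.20 and 0.25, and every neighbouring pair of groups overlapped. Only the middle step exceeded the larger SD of its neighbours (0.16). The hsa-miR-324-3p order was wt post-SE, P2rx7-/- control, P2rx7-/- post-SE, wt control, with steps of 0.79, 0.34 and 0.51 that were each smaller than the larger SD. The mmu-miR-324-3p order was P2rx7-/- post-SE, wt post-SE, P2rx7-/- control, wt control. Its steps of 0.75, 1.22 and 0.79 were also below the larger SD, although wt post-SE and P2rx7-/- control did not overlap (8.06% of all assays were likewise higher in every wt post-SE sample). The assays thus did not share an order of groups. Levels were not compared between assays, since the efficiency of each is unknown.

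To ask how the genotype and SE moved miR-324, fold changes were calculated per sample as 2 to the power of minus delta delta Ct against the mean delta Ct of the reference group. They were averaged over the 3 samples and called up above 1.5 or down below 0.6, the thresholds in the study's methods, which set no false discovery rate. By this rule both 3p assays were up and the 5p assay uncalled in P2rx7-/- control against wt control, where 21.2% of all 335 assays were up and 15.5% down. The same 2 of 3 assays were up in wt post-SE against wt control, beside 23.3% of all assays up and 12.5% down. These comparisons, and the one of P2rx7-/- post-SE with wt control, share the wt control samples.

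For hsa-miR-324-5p, the fold changes against wt control were 0.805, 0.878 and 0.936 in P2rx7-/- controls, with an average of 0.873 ± 0.0656 (SD, n = 3). They were 0.940, 1.03 and 1.16 in wt post-SE samples, on average 1.04 ± 0.110, and 0.672, 1.08 and 0.536 in P2rx7-/- post-SE samples, on average 0.764 ± 0.285. Of the 3 groups, each overlapped the wt controls, at 0.896, 1.12 and 1.00, and the lowest values were in P2rx7-/- post-SE replicates 1 and 3. Against wt post-SE, the P2rx7-/- post-SE average was 0.736 ± 0.275, not called, but without P2rx7-/- post-SE replicate 2 it was 0.582, below the threshold.

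For hsa-miR-324-3p, the P2rx7-/- control fold changes of 2.60, 1.47 and 1.54 averaged 1.87 ± 0.634 and all lay above the wt controls, at 0.586, 1.30 and 1.31. In that comparison 3.58% of all assays had every P2rx7-/- control above every wt control. Without wt control replicate 1 the average was 1.43, under the threshold. The wt post-SE values of 16.7, 1.32 and 1.39 averaged 6.48 ± 8.89, and also all lay above the wt controls, as for 5.97% of assays, although the lowest of them (1.316) was next to the highest wt control (1.311). Here 1 sample set the average: without wt post-SE replicate 1 it was 1.35. In P2rx7-/- post-SE samples the values were 1.01, 1.57 and 1.80, on average 1.46 ± 0.405, just under the threshold, and overlapped the wt controls. In that comparison 20.6% of all assays were up and 13.1% down.

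For mmu-miR-324-3p, the wt controls themselves lay at 0.101, 3.03 and 3.26 of their own mean delta Ct, so the reference group averaged 2.13 and would itself pass 1.5. That was so for 46 of the 335 assays. The P2rx7-/- control values of 0.531, 2.83 and 3.46 averaged 2.27 ± 1.54, overlapped the wt controls, and averaged 0.723 without wt control replicate 1. The wt post-SE values of 4.08, 4.37 and 3.70 were close together, averaged 4.05 ± 0.336 and lay above all wt controls, yet without wt control replicate 1 the average was 1.29. The P2rx7-/- post-SE values of 26.3, 4.13 and 2.88 averaged 11.1 ± 13.1, which was called up, as were 20.6% of all assays. They overlapped the wt controls. This average was 3.51 without P2rx7-/- post-SE replicate 1 and 3.53 without wt control replicate 1.

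**Figure D2:**
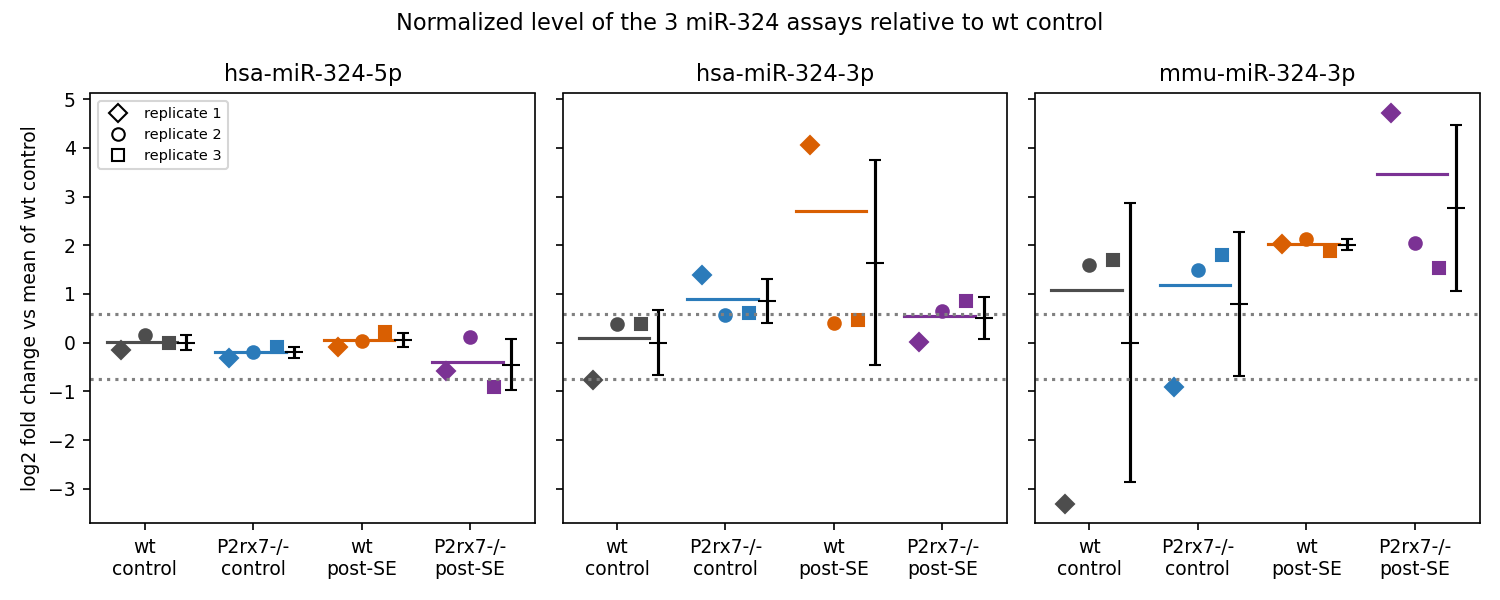
Log2 fold change of each sample against the mean delta Ct of wt control (y axis) for the 3 miR-324 assays, by group (x axis). Coloured lines mark the log2 of the average fold change, black bars the mean ± SD of the log2 values (n = 3) and dotted lines the thresholds of 1.5 and 0.6. The hsa-miR-324-3p average of 6.48 in wt post-SE and the mmu-miR-324-3p average of 11.1 in P2rx7-/- post-SE each lie far above the other 2 samples of the group.

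Between genotypes after SE, the human-named and mouse-named 3p assays were called in opposite directions. The hsa-miR-324-3p fold changes of P2rx7-/- post-SE against wt post-SE were 0.324, 0.503 and 0.575, on average 0.468 ± 0.129, which was called down, as were 4.48% of all assays. The mmu-miR-324-3p fold changes were 6.49, 1.02 and 0.713, on average 2.74 ± 3.25, which was called up, as were 17.0% of all assays. For both assays the groups overlapped. Without wt post-SE replicate 1 the hsa-miR-324-3p average was 1.08, and without P2rx7-/- post-SE replicate 1 the mmu-miR-324-3p average was 0.868, so neither call was left. The wt post-SE samples themselves averaged 2.07 against their own mean delta Ct for hsa-miR-324-3p, and 23 of the 335 assays likewise passed 1.5 within this reference group.

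When the replicate 1 samples of all 4 groups were left out together, an alternative chosen after seeing the data, 0 of the 3 assays was called in any of the 4 comparisons. In P2rx7-/- control against wt control, 61 of all 335 assays were then up and 26 down, and in wt post-SE against wt control 41 were up and 22 down. Most assays were therefore uncalled as well in these comparisons. The counts over all assays are not given here in full for the other comparisons, so 0 of the 3 is not read as a result about miR-324. Against wt control, the hsa-miR-324-3p averages were then 1.04 in wt post-SE, 1.15 in P2rx7-/- control and 1.29 in P2rx7-/- post-SE, and against wt post-SE the P2rx7-/- post-SE average was 1.25. The mmu-miR-324-3p averages were 1.28, 1.00, 1.12 and 0.872, and those of hsa-miR-324-5p 1.03, 0.859, 0.767 and 0.743, in the same order. With 2 samples a group these are values without a test.

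**Figure D3:**
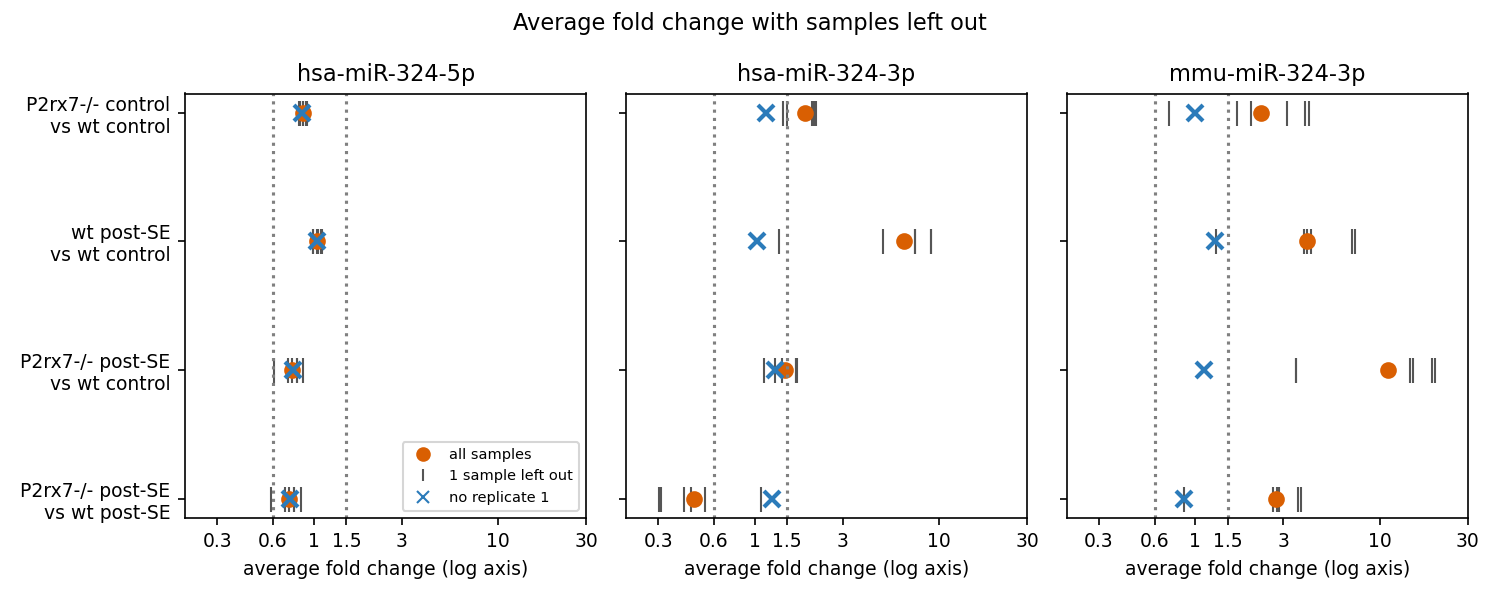
Average fold change (x axis, log scale) of the 3 miR-324 assays in the 4 comparisons (y axis): circles use all samples, vertical ticks leave out each sample of the comparison in turn, crosses leave out replicate 1 of every group, and dotted lines mark 0.6 and 1.5. All crosses lie between the thresholds, between 0.743 and 1.29, whereas the circles of the 3p assays run from 0.468 to 11.1.

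A linear model across all 335 assays (limma, empirical Bayes, Benjamini-Hochberg adjustment) called 0 of the 3 miR-324 assays in the 4 pairwise contrasts and the interaction of genotype and SE. It called 0.0% of all assays in each, with 4 to 20 assays at an unadjusted p under 0.05. The log2 difference for SE in wt mice was 0.05 for hsa-miR-324-5p (SE of the estimate 0.30, adjusted p = 0.992, limma), with a 95% confidence interval of -0.62 to 0.73. For hsa-miR-324-3p it was 1.65 (0.86, limma adjusted p = 0.664) with an interval of -0.26 to 3.55, and for mmu-miR-324-3p 2.02 (1.34, limma adjusted p = 0.664) with an interval of -0.96 to 4.99. The interval of the 5p assay lay within 1 log2 unit of 0, that is less than a factor of 2 in either direction, and those of the 3p assays reached past 3.5. Single samples decided the 3p estimates: the hsa-miR-324-3p difference was 0.44 without wt post-SE replicate 1 and the mmu-miR-324-3p difference 0.36 without wt control replicate 1. Without the replicate 1 samples of all groups they were 0.05 and 0.36, and that of hsa-miR-324-5p was 0.05.

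In P2rx7-/- mice, the log2 difference for SE was -0.25 for hsa-miR-324-5p (interval -0.93 to 0.42), -0.34 for hsa-miR-324-3p (-2.25 to 1.56) and 1.97 for mmu-miR-324-3p (-1.004 to 4.95), with a limma adjusted p of 0.998 for each. The mmu-miR-324-3p difference was 0.995 without P2rx7-/- post-SE replicate 1, 1.12 without P2rx7-/- control replicate 1 and 0.14 without the replicate 1 samples of all groups, where hsa-miR-324-3p was at 0.16. The P2rx7-/- minus wt difference was -0.20, 0.85 and 0.79 in controls for the assays in that order, with limma adjusted p of 0.868, 0.791 and 0.869. After SE it was -0.51, -1.14 and 0.75, with a limma adjusted p of 0.999 for each. Without the replicate 1 samples these were -0.22, 0.20 and -0.0073 in controls and -0.52, 0.32 and -0.22 after SE. For hsa-miR-324-5p after SE, the interval was -1.18 to 0.17 and the unadjusted limma p of 0.125 ranked 16 among the 335 assays. Interaction estimates were -0.31, -1.99 and -0.04, with limma adjusted p of 0.901, 0.851 and 0.985, and were -0.30, 0.11 and -0.21 without the replicate 1 samples. An exact permutation test of 3 against 3 samples cannot go below p = 0.1, which hsa-miR-324-3p reached for SE in wt mice and genotype in controls and mmu-miR-324-3p for SE in wt mice.

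Differences in Ct between assays of the same sample do not depend on how samples were normalized. In the replicate 2 and 3 samples, hsa-miR-324-3p minus mmu-miR-324-3p was -0.977 ± 0.319 cycles (SD, n = 8), from -1.53 to -0.477. In the replicate 1 samples it was -4.74 in wt control, -4.25 in wt post-SE, -4.50 in P2rx7-/- control and 2.48 in P2rx7-/- post-SE. A pair of assays that kept a nearly constant distance in 8 samples was therefore over 2 cycles from its median (-1.02) in all 4 replicate 1 samples, and in P2rx7-/- post-SE replicate 1 with the sign turned.

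The distance of the 5p assay to each 3p assay moved in fewer of the replicate 1 samples. For hsa-miR-324-5p minus mmu-miR-324-3p, the replicate 2 and 3 samples lay at 0.0125 ± 0.304 cycles (n = 8), from -0.404 to 0.585, against -4.99, 0.274, -2.44 and 3.44 in the replicate 1 samples, in the same order of groups. For hsa-miR-324-5p minus hsa-miR-324-3p, they lay at 0.990 ± 0.494, from 0.589 to 2.11, against -0.247, 4.52, 2.06 and 0.959, of which the last 2 lay within the range of the other samples. In 3 of 4 replicate 1 samples the mouse-named assay and in 1 of 4 the human-named assay was over 2 cycles from its usual distance to the 5p assay.

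**Figure D4:**
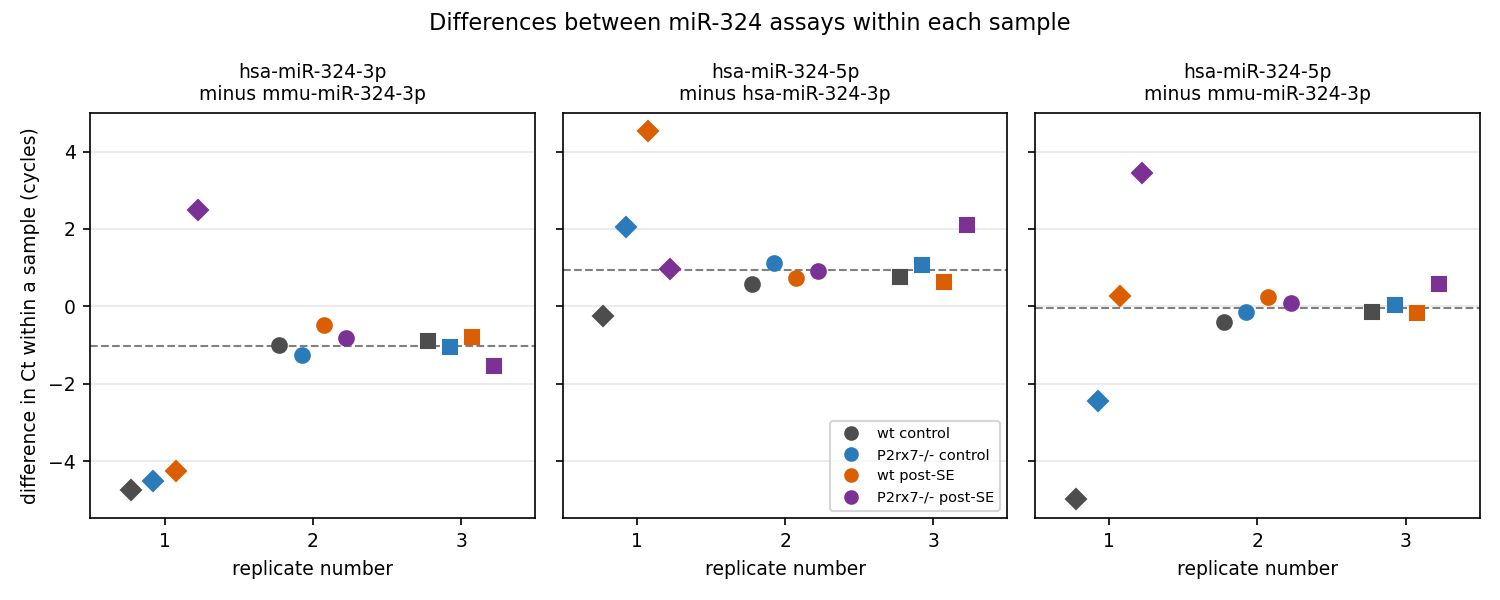
Difference in Ct (cycles, y axis) between pairs of miR-324 assays within each sample, by replicate number (x axis) and group (colours); dashed lines mark the median of the 12 samples. The replicate 2 and 3 samples of the human and mouse 3p assays lie from -1.53 to -0.477, and the replicate 1 samples from -4.74 to 2.48.

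The groups were compared on these differences by an exact permutation test, two-sided, in which labels were exchanged within the other factor (400 arrangements, smallest p 0.005), over 6 tests. The Ct of hsa-miR-324-5p minus that of mmu-miR-324-3p was on average 2.09 cycles higher in post-SE than in control samples, 1.96 in wt and 2.22 in P2rx7-/- mice (exact p = 0.01, adjusted p = 0.06), which did not pass after adjustment. Without wt control replicate 3 the adjusted p of the exact test was 0.03, and without any other single sample it was 0.06 to 0.594. Without the 4 replicate 1 samples the difference was 0.352 cycles (exact test, adjusted p = 0.222). The samples left allow too few arrangements for this exact test to pass, even before adjustment. Its p therefore decides nothing about the smaller difference. The other 5 tests had exact p of 0.195 to 0.83 and adjusted p of 0.47 to 0.83. For hsa-miR-324-3p minus mmu-miR-324-3p, the post-SE minus control difference was 1.34 cycles (exact p = 0.195, adjusted 0.47), 0.370 in wt and 2.32 in P2rx7-/- mice. The P2rx7-/- minus wt difference was 0.913 cycles (exact p = 0.61, adjusted 0.732), -0.0602 in controls and 1.89 after SE. Whether these strata differ was not tested.

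Other pairs of assays were examined to see whether this is usual on the array. For 17 pairs, the assay names gave the same mature strand under any species prefix or assay number, and both assays had a Ct in all 12 samples. The strand was taken from the names alone, without the assays' target sequences. The SD of the difference in Ct over 12 samples was 2.04 cycles for the miR-324-3p pair, rank 16 of 17 from the lowest and above the median of 0.781. Over the replicate 2 and 3 samples it was 0.319, the lowest of the 17, whose median was 0.641. The miR-200b and miR-146b pairs were the closest over 12 samples, at 0.351 and 0.462. The miR-20b pair had the highest SD at 3.52, followed among the other pairs by miR-136 at 1.60, and both were as high in the replicate 2 and 3 samples, at 3.96 and 1.63. Values over 2 cycles from the pair's median made up 6 of 64 (9.38%) replicate 1 values of the other 16 pairs and 9 of 128 (7.03%) of the rest, and 0 of these 16 pairs had all 4 replicate 1 samples that far out, with at most 2.

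For pairs of strands of 1 hairpin, 64 in all, replicate 1 samples differed more broadly. Without the miR-324 pairs, 45 of 248 (18.1%) replicate 1 values lay over 2 cycles from the pair's median, against 23 of 496 (4.64%) of the rest, and 1 of 62 pairs, hsa-miR-409-5p with rno-miR-409-3P, had all 4 replicate 1 samples that far out. The 5p assay with mmu-miR-324-3p ranked 52 of 64 in SD over 12 samples (1.96 cycles) but 2 over the replicate 2 and 3 samples (0.304). With hsa-miR-324-3p it ranked 37 (1.20 cycles) and 13 (0.494). The lowest SDs were those of miR-34b (0.255) and miR-337 (0.287), the highest those of miR-99a (3.86) and miR-770 (3.62). Pairs that share an assay are not independent, and these ranks are descriptions.

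**Figure D5:**
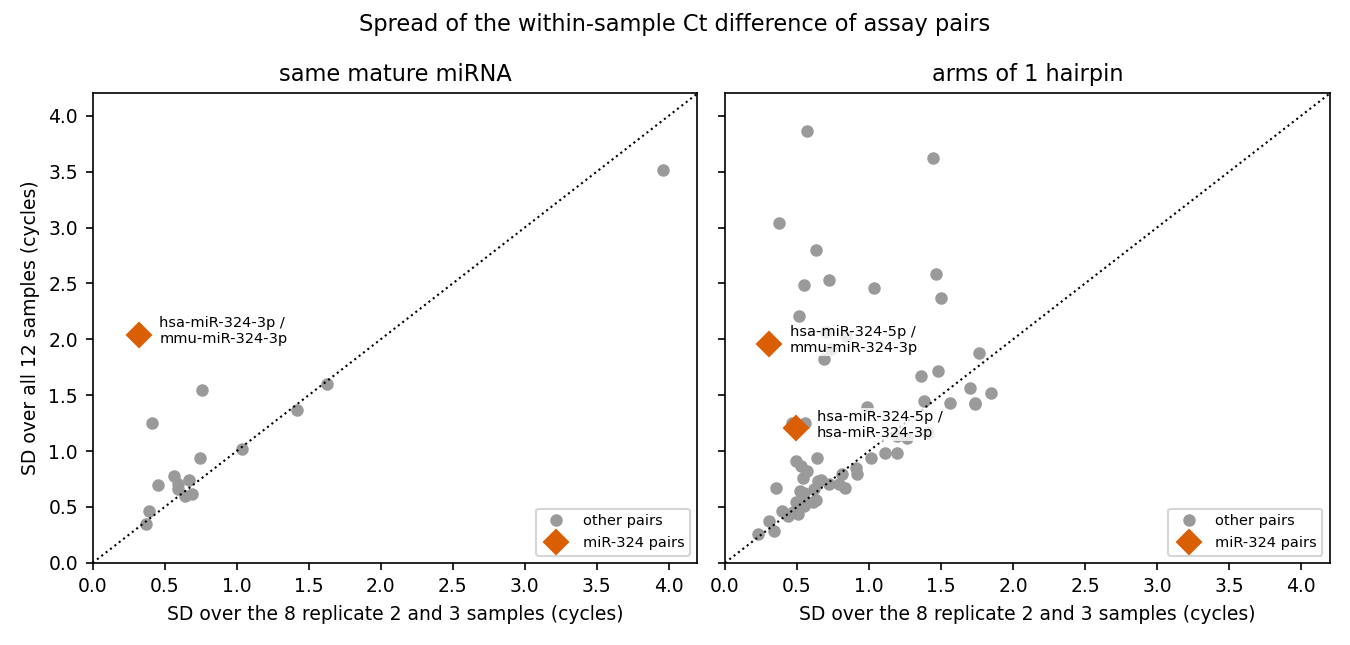
SD of the within-sample Ct difference over all 12 samples (y axis, cycles) against that over the 8 replicate 2 and 3 samples (x axis, cycles), for assay pairs of the same mature miRNA (17, left) and of strands of 1 hairpin (64, right); the dotted line marks equal SDs. The miR-324-3p pair lies at 0.319 and 2.04, and the 5p assay with mmu-miR-324-3p at 0.304 and 1.96.

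The repeated wells of the control RNAs gave a further view of the replicate 1 samples. Of 187 wells of snoRNA135, 8 (4.28%) lay over 2 cycles from their sample's median. All 8 were among the 59 wells of replicate 1 samples and 0 among the 128 others: 4 of 14 wells in wt control, 3 of 16 in wt post-SE, 1 of 15 in P2rx7-/- post-SE and 0 of 14 in P2rx7-/- control. For snoRNA202 it was 1 of 53 wells against 0 of 104. The part of such wells in the miR-324-3p values was not tested, and each miR-324 assay has 1 value a sample.

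Across the 12 samples the correlation of the normalized levels of the human-named and mouse-named 3p assays did not pass the test (Pearson r = 0.19, permutation p = 0.390, adjusted 0.993, and Spearman rho = -0.02, permutation p = 0.956, adjusted 0.956, over 3 pairs of assays). Without the 2 samples farthest from the median of hsa-miR-324-3p, the replicate 1 samples of wt control and wt post-SE, r was -0.89 (permutation p = 0.00823, adjusted 0.0247) but rho -0.53 (permutation p = 0.123), and within the replicate 2 and 3 samples r was -0.26, so the relation rests on single samples. The 5p assay had r of 0.00 with hsa-miR-324-3p and -0.06 with mmu-miR-324-3p (adjusted permutation p of 0.993 for both), and rho of -0.16 and 0.33 (adjusted permutation p of 0.926 and 0.895). Without P2rx7-/- post-SE replicates 1 and 3, r was -0.17 and 0.56 (adjusted permutation p of 0.669 and 0.152).

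The assays most like each member over the 12 samples, by Spearman rho, were not the other miR-324 assays. For hsa-miR-324-5p they were miR-497, miR-582-5p and let-7e (rho 0.68, 0.68 and 0.67), and mmu-miR-324-3p ranked 64 of 334. For hsa-miR-324-3p they were miR-213, miR-185 and mmu-let-7a#, the let-7a passenger strand (0.74, 0.72 and 0.71), with mmu-miR-324-3p at rank 156. For mmu-miR-324-3p they were miR-433, miR-150 and miR-219-2-3p (0.82, 0.80 and 0.80), with hsa-miR-324-3p at rank 141. Without wt control replicate 1, miR-213, miR-185 and mmu-let-7a# ranked 10, 16 and 3 for hsa-miR-324-3p (rho 0.66, 0.64 and 0.76). Likewise miR-497, miR-582-5p and let-7e ranked 3, 10 and 1 for hsa-miR-324-5p, and miR-433, miR-150 and miR-219-2-3p ranked 3, 6 and 7 for mmu-miR-324-3p. These rho are descriptions over samples that share their normalizer.

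MiR-324-5p is 1 of a larger number of miRNAs linked to seizures. Of 20 others whose manipulation has been reported to alter seizures or their damage, 12 had a Ct in all samples. In each contrast limma called 0 of the 12, with 0 at an unadjusted p under 0.05. By the fold rule, 4 of the 12 were up and 0 down in wt post-SE, 4 up and 1 down in P2rx7-/- control, and 3 up and 2 down in P2rx7-/- post-SE, each against wt control. Over all assays these shares were 23.3% and 12.5%, 21.2% and 15.5%, and 20.6% and 13.1%. In P2rx7-/- post-SE against wt post-SE, 3 were up and 1 down, beside 17.0% and 4.48% of all assays. Median fold changes were 1.14, 1.11, 0.985 and 0.976, beside 0.993, 1.03, 0.989 and 1.04 over all assays. The member with the lowest p for SE was miR-134, a brain miRNA that controls dendritic spine size, with log2 differences of 0.51 in wt (limma adjusted p = 0.664) and 0.39 in P2rx7-/- mice (limma adjusted p = 0.998). For genotype these were miR-34a, a p53 target, in controls (3.31, SE of the estimate 1.60, limma adjusted p = 0.615) and miR-10a after SE (-1.52, SE of the estimate 1.12, limma adjusted p = 0.999). The miR-134 differences had an SE of the estimate of 0.30. Values without replicate 1 samples are not given for these members.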

How the data were processed

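Hippocampal miRNAs of 12 mouse samples were measured on TaqMan OpenArray plates after reverse transcription of 1 µg RNA and pre-amplification. The deposited values were Ct per assay and sample, listed up to a Ct of 28.0 and otherwise empty. The software that called them is not given in the sources used here. A second deposited table held a ratio per sample, the fold change the authors scaled by each sample's mean Ct relative to a wt control sample, and was used as an alternative. Ct has no counting depth, so the number of samples limits the precision.

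Here, the 335 assays with a Ct below 28 in all 12 samples were kept, each sample's mean Ct over them was subtracted, and minus delta Ct (log2) was tested with limma 3.58.1 (R 4.3.3) over 4 groups without covariates, in 5 contrasts, adjusted over all 335 assays. The model was run on simulated data with independent normal noise and some assays raised in wt post-SE. These held no single far samples like those of replicate 1, so they do not bear on such values. Permutation tests used scipy 1.17.1, with 100000 resamples for correlations. Groups and replicate numbers came from the sample titles. Named assays were the 3 of miR-324, the 3 most alike to each by Spearman rho, the pairs of assays with the 2 lowest and 2 highest SDs, and the seizure-linked member with the lowest p. The members and lists were chosen with earlier results of these data known. Alternatives were 4 other normalizers, the deposited ratios, stricter (26) and weaker (9 samples) filters, geometric means, a p threshold, a replicate block and leaving out samples.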

Additional observations from a re-analysis of the deposited data

How the results depend on the processing

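Most values kept their direction and their side of the threshold: of the settings other than leaving out 1 sample, 166 of 180 limma values, 154 of 200 fold values or counts and 15 of 18 within-sample values did so, and with 1 sample left out 227 of 240, 102 of 120 and 69 of 72. Part of the limma values could not move: a pairwise difference keeps its value when a sample of a group outside the contrast is left out. The replicate block and the weaker filter also leave the limma differences of miR-324 unchanged. These shares therefore overstate how stable the results are. The number of samples, 3 a group, limits the precision. The cause of the changes below was not tested.

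With other normalizers, the hsa-miR-324-5p log2 difference for SE in wt was -0.0013 with the mean of all detected assays, -0.34 with snoRNA202 and -0.074 with the deposited fold changes, and its average fold change was 0.813 with snoRNA202 and 0.982 with the deposited fold changes. Its genotype difference in controls was 0.26 with snoRNA135 (average fold change 1.20), its P2rx7-/- post-SE average against wt control was 1.09 with snoRNA135, and its interaction was 0.17 with snoRNA202. The mmu-miR-324-3p interaction was 0.060 with all detected assays, 0.029 with the median, 0.43 with snoRNA202 and 0.055 with the deposited fold changes. The hsa-miR-324-3p average in P2rx7-/- post-SE against wt control was 1.63 with the median and 2.00 with snoRNA135, above 1.5. Numbers of assays up and down with snoRNA135 were 150 and 23 in P2rx7-/- control, 138 and 21 in P2rx7-/- post-SE (both against wt control) and 93 and 9 between post-SE groups. With snoRNA202, 74 assays were down in wt post-SE and 95 up between post-SE groups. This normalizer was the median of a sample's wells, and it rested on 3 wells in wt control replicate 3, against 11 to 16 in the other samples.

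With a Ct in at least 9 samples, 130 assays were up in wt post-SE, 124 in P2rx7-/- control and 116 in P2rx7-/- post-SE (68 down), and 96 up and 40 down between post-SE groups. With a p under 0.05 in the methods' two-group test required as well, none of the miR-324 calls was left (averages of 1.87, 6.48 and 0.468 for hsa-miR-324-3p and 2.27, 4.05, 11.1 and 2.74 for mmu-miR-324-3p). The numbers up and down were then 4 and 2 in wt post-SE, 2 and 5 in P2rx7-/- control, 4 and 6 in P2rx7-/- post-SE, and 2 and 0 between post-SE groups. With group medians, the hsa-miR-324-3p minus mmu-miR-324-3p genotype difference was -0.148 cycles and the hsa-miR-324-5p minus hsa-miR-324-3p SE difference -0.00844. The correlations without 2 samples were -0.89 for the 3p assays and 0.56 for hsa-miR-324-5p with mmu-miR-324-3p.

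Without replicate 1 of every group, chosen after seeing the data, hsa-miR-324-3p had log2 differences of 0.16 (SE in P2rx7-/-), 0.32 (genotype post-SE) and 0.11 (interaction), and mmu-miR-324-3p of -0.0073 (genotype in control) and -0.22 (genotype post-SE). The averages were 1.15, 1.04 and 1.25 for hsa-miR-324-3p and 1.00, 1.28, 1.12 and 0.872 for mmu-miR-324-3p, as in the report. The 3p assays differed by genotype by -0.374 cycles. In wt post-SE 41 assays were up and 22 down, in P2rx7-/- control 61 up and 26 down, and in P2rx7-/- post-SE 17 down.

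With 1 sample left out at a time, the log2 differences ran from -0.026 to 0.13 for hsa-miR-324-5p (SE in wt), from -0.86 to 1.65 (genotype in control), -0.23 to 1.37 (genotype post-SE) and -1.02 to 1.61 (interaction) for mmu-miR-324-3p, and from -1.76 to 0.072 for hsa-miR-324-3p (genotype post-SE), and, with the direction kept, from 0.44 to 2.27 for hsa-miR-324-3p and 0.36 to 2.87 for mmu-miR-324-3p (SE in wt) and 0.995 to 2.59 for mmu-miR-324-3p (SE in P2rx7-/-). Average fold changes against wt control ran from 1.43 to 2.14 (P2rx7-/- control), 1.35 to 9.07 (wt post-SE) and 1.12 to 1.69 (P2rx7-/- post-SE) for hsa-miR-324-3p, from 0.723 to 4.11 (P2rx7-/- control) and 1.29 to 7.32 (wt post-SE) for mmu-miR-324-3p, and from 0.983 to 1.10 (wt post-SE) for hsa-miR-324-5p. Between post-SE groups they ran from 0.303 to 1.08 for hsa-miR-324-3p, 0.868 to 3.76 for mmu-miR-324-3p and 0.582 to 0.846 for hsa-miR-324-5p. Within samples, hsa-miR-324-5p minus hsa-miR-324-3p ran from -0.123 to 0.850 cycles for genotype, and hsa-miR-324-5p minus mmu-miR-324-3p from 1.31 to 2.52 for SE, where only leaving out wt control replicate 3 passed after adjustment. Numbers of assays down ran from 21 to 69 in P2rx7-/- control, 20 to 58 in wt post-SE, 13 to 63 in P2rx7-/- post-SE and 17 to 32 between post-SE groups, the first 3 lowest without wt control replicate 1. Limma called 0 to 1 assays for SE in wt and in P2rx7-/-, the 1 without P2rx7-/- control replicate 2, and 0 otherwise.

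The replicate numbers were not shown to pair the samples: 18 correlations of same-numbered deviations ran from -0.23 to 0.28, 4 of them above 0.1, and 6 of 12 samples correlated best with their own number. With the replicate number as a block, limma called 0 assays in each contrast, with adjusted p of 0.661 for hsa-miR-324-3p, 0.989 for hsa-miR-324-5p and 0.671 for mmu-miR-324-3p for SE in wt, and the 2.09 cycles of hsa-miR-324-5p minus mmu-miR-324-3p had an exact p of 0.0625 (adjusted 0.188). That exact test flips the signs of same-numbered differences, which allows few arrangements. A single result at its smallest p would not pass after adjustment over the 6 tests, so its p decides little.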
